A study of Mus musculus with 28 samples.

Results

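Ido1, Arg1 and Bcat1 encode enzymes that act on amino acids, and their transcripts were followed across all 11 groups of mouse mammary cells in this series. The 3 genes were chosen by their measured levels in these arrays, so their values are given as a description, without a test. Their 95% intervals are not adjusted for that choice and describe the spread only, whether or not they include equality. They are 3 of 17097 genes that have at least 1 probe set annotated to a single symbol. Ido1 and Arg1 are each read by 1 such probe set, and Bcat1 by 3, of which the one with the highest mean over 28 arrays was used. Values are the log2 expression values that the authors deposited, so a difference of 1 is a 2-fold difference. Levels are compared between samples for 1 gene and not between genes, since each probe set has its own response.

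Ido1 (indoleamine dioxygenase) opens the ring of tryptophan and starts the kynurenine pathway. It is known in antigen-presenting cells and in many epithelia, where interferon-gamma induces it, and kynurenines are ligands of the aryl hydrocarbon receptor Ahr. Arg1 (arginase) splits arginine into urea and ornithine, the precursor of polyamines and proline. It is known from liver and from alternatively activated macrophages and other myeloid cells, where it competes with nitric oxide synthase for arginine. Bcat1, the cytosolic branched-chain aminotransferase, moves the amino group of leucine, isoleucine and valine onto alpha-ketoglutarate to give glutamate, and its mitochondrial counterpart Bcat2 feeds the breakdown of the carbon skeletons.

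All mice were females that received 3 tamoxifen injections of 5 mg, starting at 4 to 5 weeks of age, and all carried a Rosa-YFP reporter. Cre was the tamoxifen-dependent CREERT2 under keratin 8 (K8, active in luminal cells) or keratin 5 (K5, active in basal cells). The normal YFP groups were YFP+ luminal cells of K8CREERT2/RosaYFP mice and YFP+ basal cells of K5CREERT2/RosaYFP mice, each 8 weeks and 10 months after tamoxifen. The mutant groups also carried PIK3CA-H1047R, an activated form of the catalytic subunit of phosphoinositide 3-kinase. K8PIK mice gave YFP+ luminal and YFP+ basal cells at 8 weeks, and K5PIK mice gave YFP+ luminal and YFP+ basal cells at 10 months. Each of these 8 groups has 2 arrays. Tumour cells came from K5PIK mice (3 arrays), K8PIK mice (7 arrays) and K8PIK mice with p53flox/flox (2 arrays), with no tumour age in the labels used here. The comparisons ask how the genes differ between the lineages, when the oncogene is switched on in a lineage, when labelled cells are found in the other gate, and in tumours of each origin. The labels do not say whether replicates come from separate mice, so errors measure the spread between arrays. Each standard error pools that spread over all groups of its fit, not only those compared. For Arg1 in the sorted cells most of it comes from K5PIK luminal cells, with an SD of 2.39 against 0.06 to 0.47 in the other groups. Arg1 intervals in sorted cells are therefore wide where other groups are compared, even if their arrays lie close together. Where K5PIK luminal cells (6.46 and 9.84) are compared, the pooled error is smaller than their own spread would give.

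The cell labels were checked against 12 luminal and 10 basal markers. The luminal marker mean was 9.02 to 9.79 in the luminal gates and 6.83 to 8.10 in the basal gates, and the basal marker mean was 5.94 to 7.52 and 9.46 to 9.96. Arrays of a group correlated at 0.969 or more across genes, except the K8PIK tumours, where the lowest pair stood at 0.919. The tumour arrays of K8PIK mice spanned luminal marker means of 7.54 to 9.70. Of 19 myeloid markers, 2 to 7 lay below the dim level on every array of a group; the dim level is the 40th percentile of an array, 3.89 to 3.99. The mean over the myeloid markers was 4.30 to 5.14 in the sorted groups of normal and mutant gland, 5.05 to 5.49 in K5PIK tumours and 4.48 to 6.22 in K8PIK tumours.

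Bcat1 transcripts separated the luminal from the basal gates, and the promoter sequences on hand are those of this gene. RefSeq (GRCm38.p6) lists 2 starts for Bcat1, and the 250 bases before each are printed so that a reader can see what lies upstream of the gene whose transcript separated the gates. Capitals mark matches to the motifs searched on both strands, which were GAS (TTCNNNGAA), a STAT6 site (TTC and GAA with 4 bases between them), ISRE (GAAA and GAAA with 2 bases between them), the E-box (CACGTG), AP-1 (TGANTCA), a C/EBP-ATF site (TTGCATCA) and the xenobiotic response element (GCGTG), to which Ahr binds.
Bcat1 upstream start, chr6:145076158-145076407, minus strand: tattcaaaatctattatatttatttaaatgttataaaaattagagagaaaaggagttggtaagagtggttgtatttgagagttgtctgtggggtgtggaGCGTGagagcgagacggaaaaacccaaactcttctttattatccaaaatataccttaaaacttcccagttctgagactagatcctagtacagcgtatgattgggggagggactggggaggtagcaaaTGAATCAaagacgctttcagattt
Bcat1 downstream start, chr6:145048813-145049062, minus strand: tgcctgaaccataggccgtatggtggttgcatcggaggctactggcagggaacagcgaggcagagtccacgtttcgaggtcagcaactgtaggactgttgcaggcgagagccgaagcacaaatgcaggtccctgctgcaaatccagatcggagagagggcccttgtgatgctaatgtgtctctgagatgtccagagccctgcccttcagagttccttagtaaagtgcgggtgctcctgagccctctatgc

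The upstream window held an AP-1 match 24 to 18 bases before the start and a xenobiotic response element match 151 to 147 bases before it, on the strand of the gene; the motifs do not overlap. The downstream window held none of the motifs. Of 32851 windows of the same length, 6.75% held AP-1, 28.2% the xenobiotic response element, 7.02% GAS, 5.85% the STAT6 site, 2.98% ISRE, 6.02% the E-box and 0.791% the C/EBP-ATF site. The upstream window was 37.6% G and C, the downstream one 56.4%. The promoters of Ido1 and Arg1 were not analysed here.

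**Figure D1:**
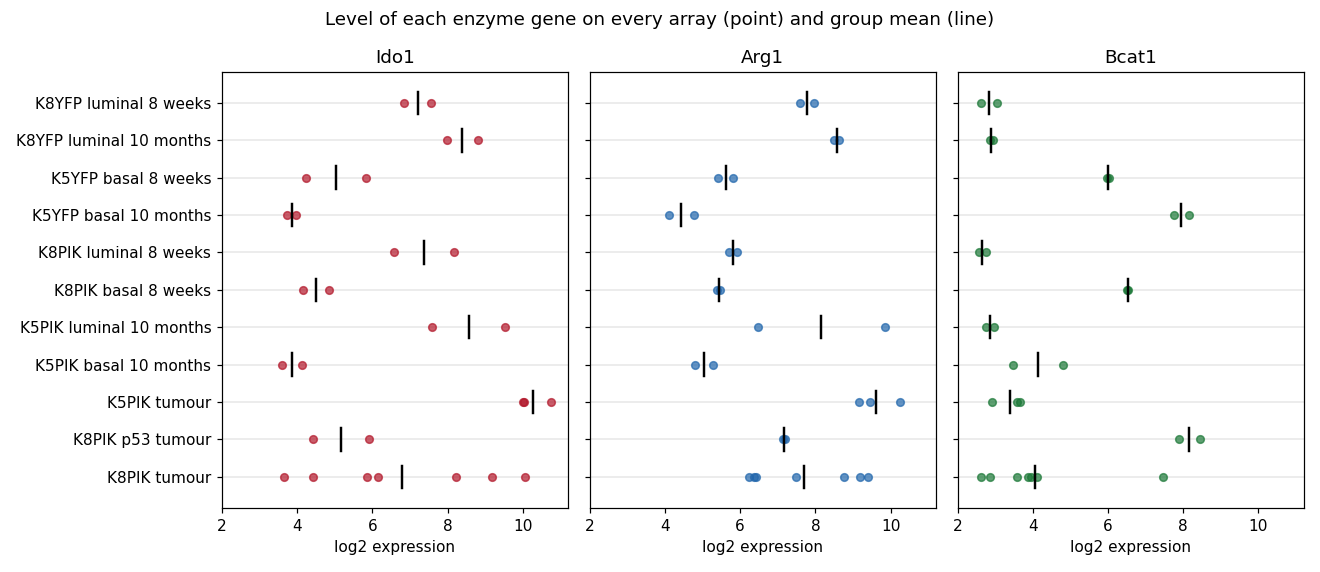
Log2 expression of Ido1, Arg1 and Bcat1 (x axes) on every array (points) in the 11 groups (rows), with a black line at each group mean. Ido1 and Arg1 lie to the right in luminal gates and K5PIK tumours, apart from Arg1 in K8PIK luminal cells, while Bcat1 lies to the right in YFP basal cells, K8PIK basal cells and p53flox/flox tumours, with 1 K8PIK tumour at 7.46.

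In normal gland, Ido1 and Arg1 were luminal transcripts and Bcat1 a basal one. Ido1 read 6.85 and 7.55 in YFP luminal cells at 8 weeks and 7.97 and 8.80 at 10 months. In YFP basal cells Ido1 read 4.24 and 5.83 at 8 weeks, and 3.73 and 3.97 at 10 months. Every luminal array stood above every basal array. Arg1 read 7.59 and 7.96 in luminal cells at 8 weeks and 8.50 and 8.63 at 10 months. The basal arrays read 5.80 and 5.42 at 8 weeks, and 4.10 and 4.77 at 10 months. For Arg1, too, the gates did not overlap. Bcat1 ran the other way, with 2.62 and 3.04 in luminal cells at 8 weeks and 2.93 and 2.86 at 10 months, all below the dim level on this probe set. Of the other Bcat1 probe sets, the second brightest lay above the dim level on 2 of 2 of these arrays at 8 weeks and 0 of 2 at 10 months, and the third on 1 of 2 at either time. Basal cells read 5.97 and 6.03 at 8 weeks and 8.15 and 7.76 at 10 months. A Bcat1 difference measured against these luminal cells therefore rests on a value near the floor of the array.

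As log2 differences of basal from luminal cells, Ido1 was -2.17 ± 0.67 (limma standard error, n = 2 and 2) at 8 weeks and -4.53 ± 0.67 at 10 months. Arg1 was -2.17 ± 0.71 and -4.13 ± 0.71, and Bcat1 3.17 ± 0.33 and 5.06 ± 0.33. The groups did not overlap for 3 of 3 genes at either time; over all genes tested, that holds for 65.5% at 8 weeks and 78.3% at 10 months. Without the first basal array at 8 weeks the Ido1 difference was -1.37; that array (4.24) and the other (5.83) lie 1.59 apart. The 2 other Bcat1 probe sets gave smaller differences in the same direction, 1.11 and 1.10 at 8 weeks and 1.98 and 2.07 at 10 months.

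The isoenzymes of these reactions were measured on the same arrays and tested, and signed values for them are log2 differences ± the limma standard error. Arg2, the mitochondrial arginase, was lower in basal cells, at -2.15 ± 0.31 at 8 weeks (limma, adjusted p = 0.000386) and at -2.22 ± 0.31 at 10 months (adjusted p = 0.000151). Both arginases thus read lower in the basal gate. Bcat2 was lower in basal cells as well, -0.67 ± 0.20 at 8 weeks (adjusted p = 0.026) and -0.71 ± 0.20 at 10 months (adjusted p = 0.014), the reverse of Bcat1. Ido2 lay between 2.95 and 3.95 on all arrays and was too dim to be tested in any fit. Tdo2, the liver-type tryptophan dioxygenase, has 2 probe sets, of which the brighter was used. It was 3.46 to 4.61 on all arrays and differed by -0.01 ± 0.21 (adjusted p = 0.982) and 0.01 ± 0.21 (adjusted p = 0.975).

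Around these enzymes stand 4 lists of pathway genes (tryptophan and kynurenine, arginine with the urea cycle and polyamines, branched-chain catabolism, and amino acid import), which hold 66 genes with a probe set, 59 of them bright enough to test in the sorted cells. At 8 weeks 22 of the 59 differed between the gates, 6 higher and 16 lower in basal cells, beside 30.3% of all genes tested. At 10 months 26 differed, 7 higher and 19 lower, beside 43.4% of all genes. The number called depended on single arrays. At 8 weeks it was 12 without the first and 13 without the second luminal array, and 11 without the first basal array. At 10 months it was 17, 15 and 14 without the corresponding arrays. Most of the lower genes belonged to branched-chain catabolism: 9 of 19 were lower at 8 weeks and 13 of 19 at 10 months, with a median difference of -0.67 and -0.99 against -0.09 and -0.12 over all genes. Pcca, a subunit of propionyl-CoA carboxylase, was lower, at -1.51 ± 0.42 (adjusted p = 0.017) at 8 weeks. Hibadh, a dehydrogenase of valine breakdown, was lower, at -1.35 ± 0.33 (adjusted p = 0.0088), and Bckdk, the kinase that inhibits the branched-chain ketoacid dehydrogenase, at -1.16 ± 0.34 (adjusted p = 0.023). At 10 months Mccc2, a subunit of methylcrotonyl-CoA carboxylase, was lower, at -1.38 ± 0.42 (adjusted p = 0.019), Pcca at -1.30 ± 0.42 and Hibadh at -1.30 ± 0.33. Dbt, the core subunit of the ketoacid dehydrogenase, was the single member higher in basal cells at 10 months.

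Of the 21 arginine-list genes tested, the basal gate had 4 higher and 5 lower at 8 weeks, and 5 higher and 3 lower at 10 months. The shares called, 42.9% and 38.1%, stand beside 30.3% and 43.4% of all genes. Odc1, ornithine decarboxylase and the entry to polyamines, was higher in basal cells by 2.58 ± 0.35 at 8 weeks (adjusted p = 0.000263) and 2.69 ± 0.35 at 10 months (adjusted p = 8.76e-05). Oat, which takes ornithine towards proline and glutamate, was higher by 1.46 ± 0.28 at 8 weeks (adjusted p = 0.0024). Other genes past ornithine were lower in basal cells at 8 weeks: Sms, spermine synthase, at -0.65 ± 0.16 (adjusted p = 0.010), and Prodh, proline dehydrogenase, at -0.996 ± 0.16 (adjusted p = 0.00087). Nos3, the endothelial nitric oxide synthase, was higher in basal cells by 1.74 ± 0.33 at 10 months (adjusted p = 0.0013), and the mean of 10 endothelial markers was also higher there, 6.09 and 7.08 against 4.99 and 5.01; their part in the Nos3 difference was not tested. Nos2, which shares arginine with arginase, read 4.40 to 5.61 on all arrays and did not pass the test at either time (-0.41, adjusted p = 0.27, and -0.29, adjusted p = 0.40).

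In the import list, Slc7a2, a cationic transporter of arginine, was lower in basal cells (-1.37 ± 0.28, adjusted p = 0.0035 at 8 weeks; -1.06 ± 0.28, adjusted p = 0.0094 at 10 months). Slc7a6, which exchanges cationic for neutral amino acids, was higher (1.10 ± 0.18, adjusted p = 0.00083; 2.35 ± 0.18, adjusted p = 1.89e-06). Slc3a2, the heavy chain that Slc7a6 pairs with, was higher by 0.66 ± 0.20 at 8 weeks (adjusted p = 0.024). In the kynurenine list, Kyat1, a kynurenine aminotransferase, was lower in basal cells at both times (-1.18 ± 0.20, adjusted p = 0.0012; -0.998 ± 0.20, adjusted p = 0.0019), and Wars, the tryptophanyl-tRNA synthetase, was lower at 10 months (-0.74 ± 0.18, adjusted p = 0.0062). Cyp1b1, a known target of Ahr, was higher in basal cells by 0.84 at 8 weeks (adjusted p = 0.038) and 2.88 at 10 months (adjusted p = 1.0e-05). Of 6 Ahr response genes tested, 2 were higher and 1 lower at 8 weeks, and 2 were higher and 0 lower at 10 months. Beside them, 30.3% and 43.4% of all genes were called. The lower one was Aldh3a1, an aldehyde dehydrogenase (-2.97 ± 1.01, limma, adjusted p = 0.042). Ahr itself lay within 0.18 of equality between the gates (adjusted p = 0.63 and 0.97).

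Between the 2 times, the luminal means of Ido1 and Arg1 were higher and the basal means lower at 10 months. Ido1 at 10 months differed from 8 weeks by 1.18 ± 0.67 in luminal cells and by -1.18 ± 0.67 in basal cells. The Ido1 difference was 0.77 without the second luminal array of 10 months, and in basal cells -1.98 without the first and -0.38 without the second array of 8 weeks. Arg1 differed by 0.79 ± 0.71 in luminal and by -1.17 ± 0.71 in basal cells. For these 4 differences the 95% interval takes in 0 (for Ido1 in luminal cells, -0.27 to 2.63). Bcat1 differed by 1.95 ± 0.33 in basal cells and 0.07 ± 0.33 in luminal cells. The ages did not overlap for 2 of 3 genes in luminal cells and 3 of 3 in basal cells, beside 48.3% and 53.1% of all genes tested.

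**Figure D2:**
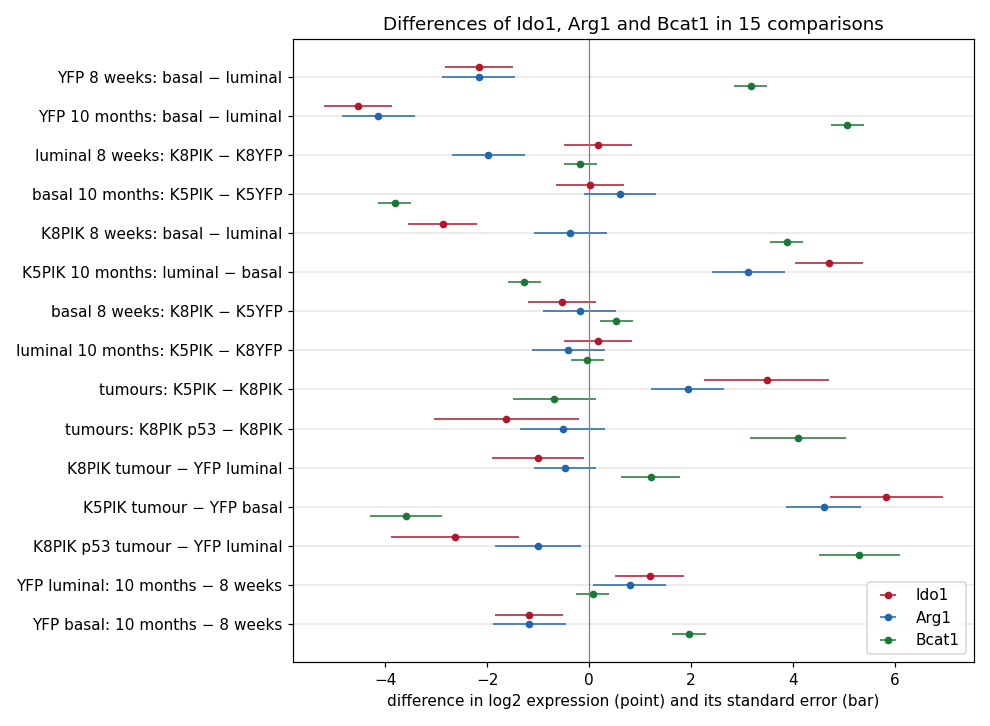
Log2 difference (point) and its limma standard error (bar) of Ido1, Arg1 and Bcat1 in 15 comparisons (rows; first group minus second). In the normal gates Ido1 and Arg1 lie left of 0 and Bcat1 right of it, and in K5PIK tumours against YFP basal cells the sides are exchanged.

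PIK3CA-H1047R in luminal cells went with a lower Arg1 and no clear difference of Ido1 or Bcat1. Arg1 read 5.90 and 5.69 in K8PIK luminal cells, below both YFP luminal arrays at 8 weeks (7.59 and 7.96) and close to the YFP basal arrays (5.80 and 5.42). The difference was -1.98 ± 0.71 (95% interval -3.53 to -0.43, n = 2 and 2). Ido1 read 8.16 and 6.58, on both sides of the YFP luminal arrays, with a difference of 0.17 ± 0.67. Its interval, -1.28 to 1.62, allows a change of either sign. Bcat1 lay below the dim level on this probe set at 2.56 and 2.74 (each other probe set was above it on 1 of 2 arrays), with a difference of -0.18 ± 0.33. The groups did not overlap for 1 of 3 genes, beside 45.2% of all genes.

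None of the 59 pathway genes passed the test in this comparison (limma), where 0.350% of all genes did; 12 had an unadjusted p under 0.05, 3 higher and 9 lower, and a trended robust prior gave none either. Arg2 read 7.53 and 7.65 against 8.74 and 8.88, a difference of -1.22 ± 0.31 (adjusted p = 0.14), and Bcat2 differed by -0.25 ± 0.20 (adjusted p = 0.72). Tdo2 differed by -0.05 ± 0.21 (adjusted p = 0.96). For the branched-chain list the median was -0.39, against -0.04 over all genes.

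In basal cells at 10 months the oncogene went with a lower Bcat1. K5PIK basal cells read 4.81 and 3.46, against 8.15 and 7.76 in YFP basal cells, a difference of -3.82 ± 0.33. The value of 3.46 lies below the dim level on this probe set, while both arrays lay above it on each other probe set. The 2 mutant arrays differ by 1.35 (SD 0.95) and both stand below both normal ones. The pooled error is smaller than that spread alone would give. Without the first mutant array the difference was -4.49, and without the second -3.15. The other Bcat1 probe sets gave -1.68 and -1.27. Ido1 read 3.59 and 4.13, around the YFP basal values of 3.73 and 3.97, a difference of 0.01 ± 0.67 (95% interval -1.44 to 1.46). Arg1 read 4.81 and 5.27, just above 4.10 and 4.77, a difference of 0.60 ± 0.71 (95% interval -0.95 to 2.15), or 0.27 without the first and 0.93 without the second YFP basal array. Of the 3 genes 2 did not overlap, beside 62.1% of all genes.

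Pathway genes in this comparison moved in 12 of 59 cases, 7 higher and 5 lower, beside 16.3% of all genes. All 7 that rose belonged to branched-chain catabolism, where 1 of 19 fell, with a list median of 0.70 against 0.09 over all genes. Mccc2 rose by 1.40 ± 0.42 (adjusted p = 0.041), Auh, a hydratase of leucine breakdown, by 1.25 ± 0.24 (adjusted p = 0.0069), and Dbt fell by 1.39 ± 0.37 (adjusted p = 0.025). Bcat2 differed by 0.07 ± 0.20 (adjusted p = 0.85), Arg2 by -0.33 ± 0.31 (adjusted p = 0.49) and Tdo2 by 0.06 ± 0.21 (adjusted p = 0.88). Slc7a2 fell by 1.39 ± 0.28 (adjusted p = 0.0084) and Slc7a6 by 0.67 ± 0.18 (adjusted p = 0.026). Nos3 fell by 1.84 ± 0.33 (adjusted p = 0.0056), with endothelial marker means of 5.40 and 4.38 against 6.09 and 7.08, whose part was not tested. Srm, spermidine synthase, fell by 1.16 ± 0.34 (adjusted p = 0.035). The number of pathway calls rests on single arrays: 0 pathway genes passed without the second K5PIK basal array and 7 without the first, and 1 and 4 passed without the first and the second YFP basal array.

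Genes known to respond to a lack of amino acids through the kinase Gcn2 and the factor Atf4 were read beside the enzymes. Of 15 such genes, 6 were lower and none higher in K5PIK than in YFP basal cells, beside 16.3% of all genes, with a median of -1.08. Asns, asparagine synthetase, read 7.53 and 5.88 against 8.87 and 8.35, a difference with an adjusted p of 0.048. The list mean differed between the 2 replicates of both K5PIK gates, 7.67 and 6.84 in basal and 8.27 and 7.05 in luminal cells, while in the other sorted groups replicates lay within 0.315. Its lower value on the second replicates goes with the higher Arg1 of the second K5PIK luminal array (9.84 against 6.46); a link between the list and Arg1 was not tested.

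Labelled cells that were found in the other gate had Ido1 and Bcat1 levels on the side of the gate they were sorted in. K8PIK basal cells, traced from keratin 8 cells, read Bcat1 at 6.53 and 6.52, against 2.56 and 2.74 in K8PIK luminal cells of the same time. The difference was 3.87 ± 0.33, measured against luminal values below the dim level on this probe set, and was 0.98 and 1.35 on the other probe sets. Ido1 read 4.84 and 4.14 in the K8PIK basal cells, below 8.16 and 6.58 in the luminal ones, a difference of -2.88 ± 0.67. Arg1 read 5.38 and 5.47 against 5.90 and 5.69, a difference of -0.37 ± 0.71 (95% interval -1.92 to 1.18). The gates did not overlap for 3 of 3 genes, beside 63.1% of all genes. Set against YFP basal cells of 8 weeks, the K8PIK basal cells differed by -0.54 ± 0.67 for Ido1, -0.18 ± 0.71 for Arg1 and 0.53 ± 0.33 for Bcat1. Here 1 of 3 genes did not overlap, beside 45.2% of all genes.

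Of the pathway genes 12 of 59 differed between the K8PIK gates, 4 higher and 8 lower in basal cells, beside 19.5% of all genes. Without the second K8PIK luminal array 6 were called, and without the first basal array 4. Odc1 (2.02 ± 0.35, adjusted p = 0.0016), Oat (1.29 ± 0.28, adjusted p = 0.0067) and Slc7a6 (1.58 ± 0.18, adjusted p = 9.47e-05) were higher. Asl, the argininosuccinate lyase that makes arginine, was lower, at -1.53 ± 0.22 (adjusted p = 0.000478). Hibadh (-1.20 ± 0.33, adjusted p = 0.022), Acat1 (-1.10 ± 0.27, adjusted p = 0.012), which acts late in isoleucine breakdown, Slc7a2 (-1.24 ± 0.28, adjusted p = 0.0085) and Kyat1 (-0.62 ± 0.20, adjusted p = 0.049) were lower. Arg2 was 6.72 and 6.73 against 7.53 and 7.65 (-0.87 ± 0.31, adjusted p = 0.068), Bcat2 differed by -0.59 ± 0.20 (adjusted p = 0.060), and Tdo2 by 0.22 ± 0.21 (adjusted p = 0.53).

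K5PIK luminal cells, traced from keratin 5 cells, were high in Ido1, at 7.59 and 9.53 against 3.59 and 4.13 in K5PIK basal cells. Arg1 read 6.46 and 9.84 against 4.81 and 5.27, a difference of 3.12 ± 0.71. The 2 luminal arrays differ by 3.38, and the Arg1 difference was 4.81 without the first and 1.43 without the second. Bcat1 read 2.98 and 2.74 against 4.81 and 3.46, a difference of luminal from basal cells of -1.27 ± 0.33. All of these values but 4.81 lie below the dim level on this probe set. The normal gates of the same time were 5.06 apart. The K5PIK difference was -0.60 without the first and -1.95 without the second basal array. On the probe set with the second highest mean the K5PIK gates differed by -0.38, and the normal gates were 1.98 apart. The remaining Bcat1 probe set had means of 3.82 in K5PIK luminal and 4.76 in K5PIK basal cells. For 3 of 3 genes the K5PIK gates did not overlap on the probe sets used, beside 53.6% of all genes. Against YFP luminal cells of 10 months the differences were 0.17 ± 0.67 for Ido1, -0.42 ± 0.71 for Arg1 and -0.03 ± 0.33 for Bcat1. The signs for Ido1 and Arg1 rest on single arrays: without the first K5PIK luminal array they were 1.14 and 1.27, and without the second -0.80 and -2.10. For 0 of 3 genes were these groups apart, beside 53.3% of all genes.

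Between the K5PIK gates 12 of 59 pathway genes differed, 6 higher and 6 lower in luminal cells, beside 23.6% of all genes. With all 28 arrays in one fit 4 were called, and without the first K5PIK basal array 8. Arg2 was higher in luminal cells by 1.76 ± 0.31 (adjusted p = 0.0012), Slc7a2 by 1.29 ± 0.28 (adjusted p = 0.0051) and Kyat1 by 0.88 ± 0.20 (adjusted p = 0.0070). Azin1, which protects ornithine decarboxylase from its inhibitor, was lower, at -1.87 ± 0.22 (adjusted p = 6.24e-05), Odc1 at -1.69 ± 0.35 (adjusted p = 0.0035) and Slc7a6 at -1.80 ± 0.18 (adjusted p = 1.82e-05). Only 1 of 19 branched-chain genes differed, Aldh6a1, a dehydrogenase of valine breakdown, at -1.06 ± 0.32 (adjusted p = 0.031). Bcat2 differed by 0.33 ± 0.20 (adjusted p = 0.29), Tdo2 by -0.36 ± 0.21 (adjusted p = 0.27). Cyp1b1 was lower in luminal cells, at -3.53 (adjusted p = 3.47e-06).

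**Figure D3:**
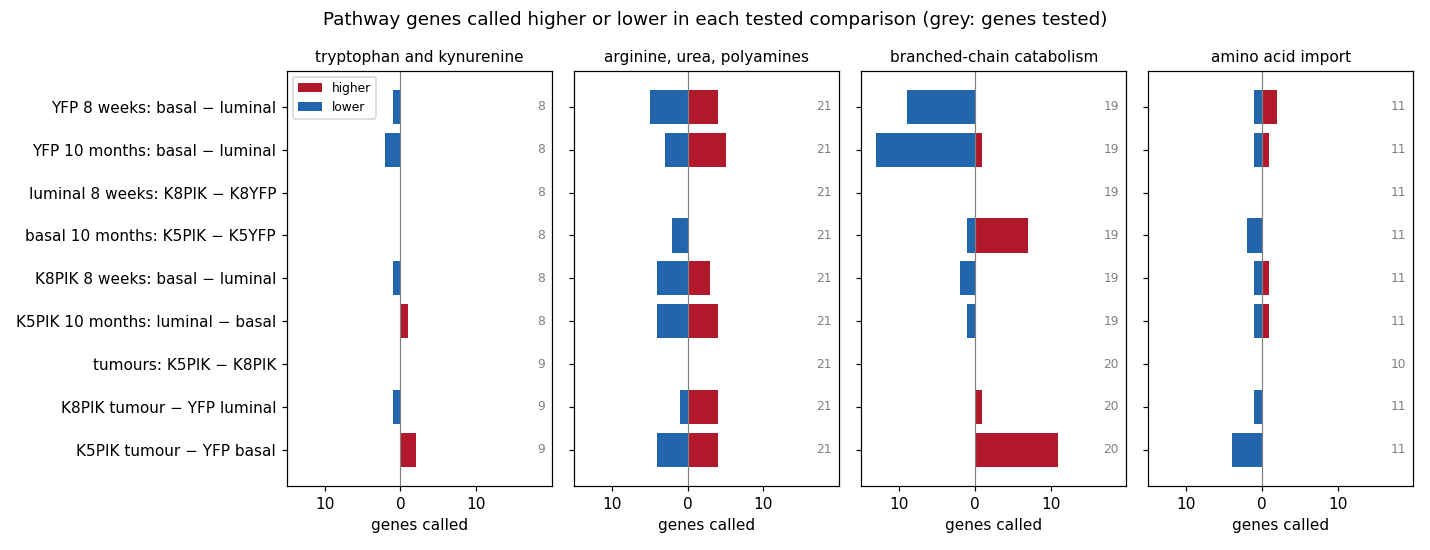
Number of pathway genes called higher (red, right) or lower (blue, left) at a limma adjusted p under 0.05 in 9 comparisons (rows), for 4 gene lists (panels), with the number of genes tested in grey. Branched-chain catabolism has 13 genes lower in normal basal cells at 10 months and 11 higher in K5PIK tumours against YFP basal cells.

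Tumours of K5PIK and K8PIK mice differed in how alike their arrays were. K5PIK tumours read Ido1 at 10.00, 10.04 and 10.76, the highest group of all, above every normal luminal array (6.85 to 8.80). Arg1 read 9.16, 9.46 and 10.24 there, again above every normal luminal array (7.59 to 8.63). Bcat1 read 3.59, 2.92 and 3.65, below the dim level on this probe set (another was above it on 1 of 3 arrays). Against YFP basal cells, the cells in which keratin 5 is active, the differences were 5.82 ± 1.10 for Ido1, 4.60 ± 0.74 for Arg1 and -3.59 ± 0.70 for Bcat1 (n = 3 and 4). For 3 of 3 genes the groups did not overlap, beside 35.2% of all genes. The other Bcat1 probe sets gave -1.61 and -1.99. Luminal marker means of 9.29 to 9.56 in these tumours lie in the range of the luminal gates, and basal marker means of 7.64 to 8.13 between the gates. In sorted bulk samples a change in the mix of cells and a change of RNA per cell cannot be told apart.

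Among 61 pathway genes, 25 differed between K5PIK tumours and YFP basal cells, 17 higher and 8 lower, beside 30.0% of all genes. Branched-chain genes made up 11 of the 17 (11 of 20 tested, none lower, median 0.58 against 0.04 over all genes). Mccc2 was higher by 1.21 ± 0.29 (adjusted p = 0.0036), Pcca by 1.13 ± 0.33 (adjusted p = 0.014), Hibadh by 1.03 ± 0.24 (adjusted p = 0.0027) and Bcat2 by 0.79 ± 0.19 (adjusted p = 0.0036). In the kynurenine list Kynu, kynureninase, was higher by 1.39 ± 0.36 (adjusted p = 0.0059), with overlapping groups, and Kyat1 by 0.96 ± 0.25 (adjusted p = 0.0075). Arg2 differed by 1.18 ± 0.50 (adjusted p = 0.080) and Tdo2 by 0.18 ± 0.21 (adjusted p = 0.54).

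On the arginine side Odc1 was lower in K5PIK tumours, at -2.33 ± 0.41 (adjusted p = 0.000361), Srm at -1.32 ± 0.29 (adjusted p = 0.0017) and Nos3 at -1.20 ± 0.25 (adjusted p = 0.0011), where endothelial marker means were 5.17 to 5.74 against 6.09 to 7.25 in YFP basal cells. The import genes fell in 4 of 11 cases and rose in none: Slc7a6 at -2.62 ± 0.36 (adjusted p = 4.84e-05), Slc7a5, the leucine and tryptophan exchanger, at -2.11 ± 0.51 (adjusted p = 0.0040), and Slc7a1, a carrier of arginine, at -1.71 ± 0.44 (adjusted p = 0.0059). Of the 15 amino acid depletion genes 9 were lower and 1 higher, with a median of -0.87. The counts of both lists stand beside 30.0% of all genes called in either direction. Ahr read 7.70 to 7.82 in these tumours, a difference of 0.74 (adjusted p = 0.022), while Cyp1b1 differed by -1.89 (adjusted p = 0.075).

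K8PIK tumours were not alike. Ido1 ran from 3.66 to 10.05 with a median of 6.16, a spread of 6.39 that takes in both the normal luminal and the normal basal level. Tumours 4, 5 and 7 read 9.18, 10.05 and 8.23, and tumours 1 and 3 read 3.66 and 4.41. Arg1 ran from 6.22 to 9.40 with a median of 7.49, and was high in tumours 1, 2 and 4 (9.18, 8.76 and 9.40). Tumour 1 thus held a high Arg1 beside the lowest Ido1 of the group, and tumour 5 the highest Ido1 beside an Arg1 of 7.49. Bcat1 ran from 2.62 to 7.46 with a median of 3.88, with tumour 3 highest and tumour 6 next at 4.10. Tumour 3 also had the lowest luminal marker mean, 7.54.

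Against YFP luminal cells of both times, K8PIK tumours differed by -1.004 ± 0.91 for Ido1 (95% interval -2.89 to 0.89, n = 7 and 4), -0.48 ± 0.61 for Arg1 (-1.75 to 0.78) and 1.21 ± 0.58 for Bcat1. Without tumour 3 the Bcat1 difference was 0.64, and that of Ido1 was -0.48 without tumour 1, -0.61 without tumour 3 and -1.55 without tumour 5. That of Arg1 ran from -0.77 without tumour 4 to -0.24 without tumour 3, and was 0.18, on the other side of 0, with the replicate number as a block. On the other Bcat1 probe sets the difference was 0.32 and 0.21. All 3 genes overlapped, while 6.90% of all genes did not. Of 61 pathway genes 5 were higher and 3 lower, beside 10.6% of all genes. Ass1, argininosuccinate synthase, was higher by 1.87 ± 0.43 (adjusted p = 0.010) and Ddah1, which degrades inhibitors of nitric oxide synthase, by 1.56 ± 0.39 (adjusted p = 0.015). Ppm1k, the phosphatase that activates the branched-chain ketoacid dehydrogenase, was higher by 0.50 ± 0.12 (adjusted p = 0.011). Arg2 was lower, at 5.32 to 8.17 in the 7 tumours against 8.74 to 8.88 in the 4 normal luminal arrays, a difference of -1.82 ± 0.41 (adjusted p = 0.0087). Slc7a2 was lower, at -1.64 ± 0.49 (adjusted p = 0.036) and Wars at -0.80 ± 0.20 (adjusted p = 0.014), both with overlapping groups. Bcat2 differed by 0.31 ± 0.16 (adjusted p = 0.21) and Tdo2 by 0.02 ± 0.17 (adjusted p = 0.96). These calls depended on the arrays in the fit: with the compared groups alone in the fit 0 pathway genes passed, and without each of the YFP luminal arrays in turn 3 and 3 (8 weeks) and 4 and 1 (10 months) did.

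K5PIK tumours stood above K8PIK tumours on average for Ido1 and Arg1. The difference was 3.48 ± 1.22 for Ido1 (95% interval 0.81 to 6.15, n = 3 and 7), 1.93 ± 0.72 for Arg1 (0.36 to 3.50) and -0.68 ± 0.81 for Bcat1. The groups overlap: 1 of 7 K8PIK tumours lay above the lowest K5PIK tumour for Ido1 (10.05 against 10.00) and 2 of 7 for Arg1. For 0 of 3 genes were the groups apart, as 3.62% of all genes were. Limma called 0 of 60 pathway genes and 0% of all 13244 genes; at an unadjusted p under 0.05 it gave 2 pathway genes, both higher in K5PIK tumours, and 1225 of all genes (9.25%), and a trended robust prior also called none. Arg2 differed by 0.81 ± 0.56 (adjusted p = 0.66), Bcat2 by -0.21 ± 0.20 (adjusted p = 0.73) and Tdo2 by 0.16 ± 0.21 (adjusted p = 0.81).

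The 2 p53flox/flox tumours read Bcat1 at 7.88 and 8.44, above all 7 K8PIK tumours, with a difference of 4.09 ± 0.94 (95% interval 2.04 to 6.14, n = 2 and 7). The other Bcat1 probe sets gave 1.88 and 0.98. Ido1 read 4.42 and 5.91, within the K8PIK range, a difference of -1.63 ± 1.42 (-0.88 without the first p53flox/flox tumour, -1.08 without K8PIK tumour 5, and 0.59, on the other side of 0, with the replicate number as a block), and Arg1 read 7.20 and 7.14, also within it, a difference of -0.52 ± 0.83. Of the 3 genes 1 did not overlap, beside 15.5% of all genes. Against YFP luminal cells the differences were -2.63 ± 1.25 for Ido1, -1.003 ± 0.84 for Arg1 and 5.30 ± 0.80 for Bcat1, with 3 of 3 genes apart, beside 51.3% of all genes. Arg2 read 6.02 and 5.47, the lowest group mean of the 11. The luminal marker mean of these tumours, 7.49 and 8.19, lies near that of the basal gates (6.83 to 8.10), while their basal marker mean, 7.10 and 7.63, lies below theirs (9.46 to 9.96), and their fibroblast marker mean, 7.66 and 7.58, exceeds that of every array of sorted gland (4.52 to 6.54) and lies within the range of K8PIK tumours (5.01 to 7.99) and near the top of that of K5PIK tumours (6.14 to 7.59). The part of those markers in the Bcat1 level was not tested.

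**Figure D4:**
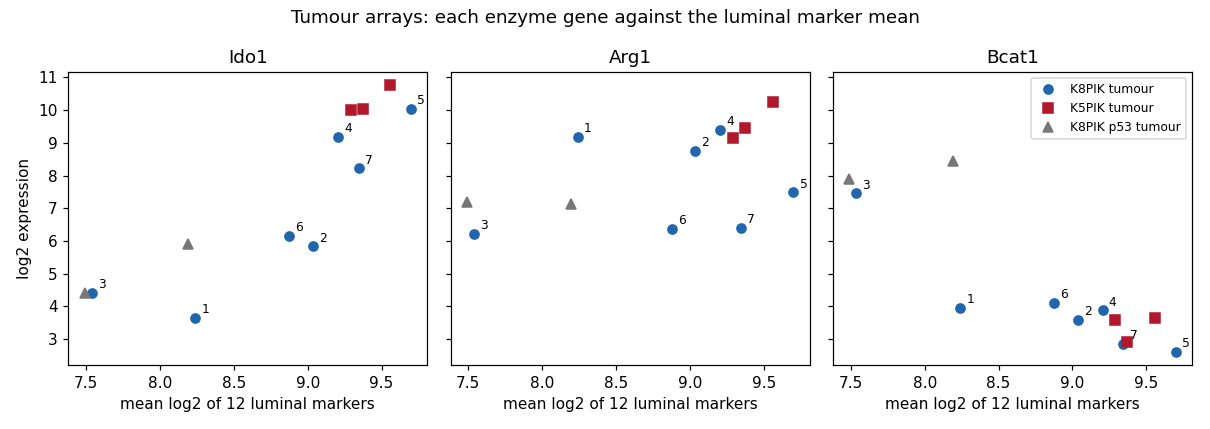
Log2 expression of Ido1, Arg1 and Bcat1 (y axis) against the mean log2 level of 12 luminal markers (x axis) in the 12 tumour arrays, with K8PIK tumours numbered. Ido1 is high where luminal markers are high, and Bcat1 is high in the 3 arrays with the lowest luminal marker mean (both p53flox/flox tumours and K8PIK tumour 3). Arg1 shows no such order within the numbered K8PIK tumours.

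Within the 7 K8PIK tumours, Ido1 and Bcat1 were ordered along the luminal markers and Arg1 was not. Ido1 correlated with the luminal marker mean at r = 0.86 (Spearman rho 0.89), Bcat1 at -0.91 (rho -0.93) and Arg1 at 0.16 (rho 0.29). Without the 2 tumours farthest from the median luminal level, r was 0.87, -0.89 and -0.01 over 5 tumours. Bcat1 lay above the dim level on only 3 of the 7 tumours on this probe set. Its order therefore rests in part on values near the floor of the array. Tumour 1 had an Arg1 of 9.18 with a luminal mean of 8.24, and tumour 5 an Arg1 of 7.49 with a luminal mean of 9.70. Ido1 and Arg1 correlated at 0.01 within these tumours (rho 0.14), although their 11 group means correlated at 0.90. Ido1 and Bcat1 correlated at -0.61 (rho -0.68) and at -0.73 over group means. Arg2 went with Ido1 at 0.81 (rho 0.82) and with Arg1 at 0.45 (rho 0.46). These are descriptions of a few arrays that share origin, and their mix of cells was not measured.

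Since Arg1 and Ido1 are both known from leukocytes, leukocyte markers were set beside them. Within the 7 K8PIK tumours Arg1 correlated with the myeloid mean at 0.58 (rho 0.54), the dendritic mean at 0.77 (rho 0.79) and the neutrophil mean at 0.76 (rho 0.54). Without the 2 farthest tumours r was 0.65, 0.63 and 0.58. The lymphoid mean (0.63, rho 0.5) and the erythroid mean (0.65, rho 0.57) gave similar values. Over all 28 arrays Arg1 correlated with the myeloid, dendritic and neutrophil means at 0.31, 0.11 and 0.26. For Ido1 within the 7 tumours the values with these means were -0.47, -0.04 and -0.58. The highest myeloid mean, 6.22, was in K8PIK tumour 2, whose Arg1 was 8.76. K5PIK tumours had Arg1 at 9.16 or more with myeloid means of 5.49 or less. Normal luminal cells of 10 months had Arg1 at 8.50 and 8.63 with myeloid means of 4.50 and 4.48. Ptprc, the pan-leukocyte marker CD45, lay above the dim level on 1 array each of K5PIK tumours, K8PIK tumours and YFP basal cells of 10 months, and on 0 luminal arrays. Of the 19 myeloid markers, 13 lay above the dim level on every K5PIK tumour array and 13 on every K8PIK tumour array, against 9 to 12 on every array of a luminal gate, and 2 were dim on every array of either tumour group, against 6 or 7 in a luminal gate. The part of leukocytes in the tumour levels of Arg1 was not tested within tumours. With the mean of myeloid, dendritic and lymphoid markers as a covariate, the K5PIK tumour difference from YFP basal cells was 6.11 for Ido1 and 4.30 for Arg1, against 5.82 and 4.60 without it.

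Interferon-gamma and its readouts were measured too. Ifng lay between 3.13 and 3.89 and below the dim level on all 28 arrays. Irf1, a direct interferon-gamma target, read 7.98 to 8.34 in YFP luminal cells, 8.53 to 8.87 in K5PIK tumours and 8.23 to 9.52 in K8PIK tumours, and was higher in K8PIK tumours than YFP luminal cells by 0.85 (adjusted p = 0.015). In K5PIK tumours, the group with the highest Ido1 mean, Irf1 differed from YFP basal cells by -0.07 ± 0.26 (limma, adjusted p = 0.86). Those basal cells read 8.33 to 9.12, while every K5PIK tumour array lay above every YFP luminal array. The K5PIK tumour difference from YFP luminal cells was not tested. Between the normal gates, 2 of 18 interferon-gamma response genes tested were higher and 4 lower in basal cells at 8 weeks. At 10 months 3 were higher and 2 lower. The shares called, 33.3% and 27.8%, stand beside 30.3% and 43.4% of all genes. Irf1 differed by 0.46 (limma, adjusted p = 0.17) and by 0.83 (adjusted p = 0.013). The mean of 21 interferon-gamma response genes correlated with Ido1 at 0.47 within the 7 K8PIK tumours (rho 0.46), and at 0.14 without the 2 farthest.

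Over the 11 group means, the genes most like Ido1 among 13662 were Scnn1a (r = 0.97), an epithelial sodium channel subunit, Rsad1, Krt4, a keratin, Fer1l4 and Tmprss2, a membrane serine protease, at 0.96 or more. Those most like Arg1 were Defa39 (0.97), D930048N14Rik, Lrrc26, Clic3 and Ppcdc at 0.938 or more, of which Defa39 spans only 3.83 to 4.20 in its group means. Those most like Bcat1 were Adam19 (0.99), a membrane protease, Vgll3, Fam78b, B4galt5 and Gemin5 at 0.956 or more.

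In order of group means, K5PIK tumours were first for Ido1 (10.27 ± 0.43, SD, n = 3), and their arrays stood apart from the next group, K5PIK luminal cells (8.56 ± 1.37, n = 2). From there through the other luminal gates, K8PIK tumours, p53flox/flox tumours, YFP basal cells of 8 weeks and K8PIK basal cells (4.49 ± 0.50) each group overlapped the next. Below them, without overlap, came K5PIK and YFP basal cells of 10 months (3.86 ± 0.39 and 3.85 ± 0.17). For Arg1, K5PIK tumours (9.62 ± 0.56) were again apart from the next group, YFP luminal cells of 10 months (8.57 ± 0.09). Groups overlapped down to p53flox/flox tumours (7.17 ± 0.05), which were apart from K8PIK luminal cells (5.80 ± 0.15). The last groups, K8PIK basal (5.43 ± 0.06), K5PIK basal (5.04 ± 0.32) and YFP basal cells of 10 months (4.43 ± 0.47), did not overlap one another in that order. For Bcat1, p53flox/flox tumours (8.16 ± 0.39) and YFP basal cells of 10 months (7.95 ± 0.28) overlapped. K8PIK basal cells (6.53 ± 0.01) and YFP basal cells of 8 weeks (6.00 ± 0.04) followed, each apart from its neighbours. From K5PIK basal cells (4.13 ± 0.95) down to K8PIK luminal cells (2.65 ± 0.13) all neighbours overlapped. Of the 28 arrays, 25 were above the dim level for Ido1, 28 for Arg1 and 12 for Bcat1 on the probe set used.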

How the data were processed

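The values are log2 expression levels as the authors deposited them, 45141 probe sets of a perfect-match Affymetrix array per sample. The submitters' processing notes name R 2.14.0; background correction and normalization are not given in the sources used here. Array medians were 4.40 to 4.50, and no further scaling was done. Precision is limited by the number of arrays. Of 29449 annotated probe sets, 28898 have 1 gene symbol, 551 have several and were left out, and 15692 probe sets are unnamed here. For 7180 genes with over 1 probe set, the one with the highest mean was used. Symbols come from the platform annotation.

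Group means were estimated by limma 3.58.1 (R 4.3.3, empirical Bayes) from the 16 sorted arrays (13150 genes), the 12 tumour arrays (13244) or, for tumours against normal cells, all 28 (13663), and checked on simulated data. Genes above the 40th percentile of an array on at least 2 arrays were tested; a call needs an adjusted p under 0.05 (Benjamini-Hochberg over all genes). Normal references of tumours average the 8-week and 10-month groups. The members, gene lists and tests were chosen with earlier results of these data known. Named beside the members were isoenzymes, up to 3 called genes per pathway list and comparison with the largest difference, 9 response genes, of which 1 is not reported here, and the 5 genes most like each member; Dbt at 10 months was named after its value was seen, as were Sms, Prodh, Aldh3a1 and the other Bcat1 probe sets. Alternatives were another choice of arrays, no filter, a trended robust prior, probe set means, quantile and median scaling, a replicate block, a leukocyte covariate and leaving out each array. Replicate numbers were not taken to pair the samples, since nothing in the labels ties them.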

Additional observations from a re-analysis of the deposited data

Results flagged for a closer look

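Among the 7 K8PIK tumours, tumour 3 stood apart from the other 6 for Bcat1, at 7.46, and for Tdo2, at 4.61, by a gap above Dixon's 95% value. The Tdo2 probe set used lay above the dim level on only 3 of these 7 tumours. On the other Tdo2 probe set, dim on every array, tumour 3 did not stand apart, at 2.94 beside 2.92 in tumour 2. The search covered 15 genes in this 1 group, chance marks about 1 in 20 such sets, and for Bcat1, chosen by its levels here, the gap is a description. Arg1 lay in opposite directions in the lineages that carry PIK3CA-H1047R, with a log2 difference from YFP cells of -1.98 in luminal cells at 8 weeks and of 0.60 in basal cells at 10 months (95% interval -0.95 to 2.15, and 0.27 to 0.93 with 1 YFP basal array left out). Between 8 weeks and 10 months in YFP cells, Ido1 differed by 1.18 in luminal cells and by -1.18 in basal cells, and Arg1 by 0.79 and by -1.17. In these 3 pairs every array of one lineage lay on one side of its reference mean and every array of the other lineage on the opposite side. The differences between lineages were not tested.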

How the results depend on the processing

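Of 390 member differences recomputed under other settings, 42 moved by more than 1 replicate SD and 0 that were at least 2 standard errors from 0 changed sign. With 1 array left out, 0 of 249 changed sign in that sense. Where each compared group has 2 arrays, leaving out 1 cannot move a difference by more than 1 replicate SD, so moves were not counted there. Single arrays still mattered: Arg1 between the K5PIK gates ran from 1.43 to 4.81. Of 72 counts of pathway genes, 7 left the range of 1.5 times. With all 28 arrays in one fit, the counts were 14 (from 22) for the normal gates at 8 weeks, 7 (from 12) for PIK3CA-H1047R in basal cells, 7 (from 12) for the K8PIK gates and 4 (from 12) for the K5PIK gates. With the compared groups alone, 0 (from 8) were called for K8PIK tumours against YFP luminal cells. With the leukocyte marker mean as a covariate, 12 were called for the normal gates at 8 weeks and 3 for K8PIK tumours against YFP luminal cells. With 1 array left out, where a lone array is taken to vary like the other groups, the counts ran from 11 to 22 (normal gates, 8 weeks), 14 to 19 (10 months), 0 to 7 (PIK3CA-H1047R in basal cells), 4 to 8 (K8PIK gates), 8 to 14 (K5PIK gates), 1 to 8 (K8PIK tumours against luminal cells) and 18 to 25 (K5PIK tumours against basal cells), and stayed at 0 for the other 2. Fewer arrays and, with all 28, a spread shared with tumours enter these fits.

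Bcat1 differences shrank with its other probe sets, which were tried after the data were seen. The mean of the 3 probe sets gave 1.79 and 3.04 for the normal gates at 8 weeks and 10 months, -2.25 for PIK3CA-H1047R in basal cells, 2.07 for the K8PIK gates, 0.115 for K8PIK against YFP basal cells, 1.20 for age in basal cells, 2.32 for p53flox/flox against other K8PIK tumours, -2.40 for K5PIK tumours against basal cells and 2.90 for p53flox/flox tumours against luminal cells. In the same order, the probe set with the second highest mean gave 1.11, 1.98, -1.68, 0.98, -0.35, 0.69, 1.88, -1.61 and 2.20, with -0.38 for the K5PIK gates and -0.18 for age in luminal cells, and the one with the lowest mean gave 1.10, 2.07, -1.27, 1.35, 0.17, 0.95, 0.98, -1.99 and 1.19. After quantile normalisation Bcat1 in K8PIK against YFP basal cells was 0.41. The cause was not tested.

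With the leukocyte covariate, Arg1 was -1.86 between the normal gates at 8 weeks; at 10 months Ido1 was -5.02, Arg1 -3.78 and Bcat1 4.83. In K8PIK against YFP basal cells Arg1 was -0.41 and Bcat1 0.67, in K5PIK against YFP luminal cells Bcat1 was -0.19, and in p53flox/flox tumours against luminal cells Arg1 was -1.75 and Bcat1 4.97. Replicate numbers shared by groups were not taken to pair the samples. Deviations of arrays with the same number correlated at -0.14 to 0.21, apart from the K5PIK gates at 0.36. All sorted groups have 2 arrays, so the small number of pairs is not particular to the K5PIK gates. Whether the K5PIK gates share a source by replicate was not tested. With the replicate number as a block, Ido1 was 5.63 between K5PIK and K8PIK tumours, 0.59 (from -1.63) between p53flox/flox and other K8PIK tumours and -3.22 in K8PIK tumours against luminal cells, where Arg1 was 0.18 (from -0.48), and Bcat1 was -4.27 in K5PIK tumours against basal cells. Under the block the pathway counts were 26 and 29 for the normal gates, 0 and 18 for PIK3CA-H1047R in luminal and basal cells, 16 and 13 for the K8PIK and K5PIK gates, 0 between K5PIK and K8PIK tumours, and 12 and 29 for K8PIK and K5PIK tumours against normal cells. Precision is limited by 2 arrays in most groups.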
